A study of Homo sapiens with 8 samples.

Results

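In the human uveal melanoma cell line MEL202, 10 genes, HACL1, MUT, HYI, RECQL, SMARCA1, RTF1, KIAA0196, WDR34, RDX and LMAN1, were measured across 8 RNA-seq libraries. They were picked because their transcripts stood higher after loss of mutant SF3B1 and lower after loss of wildtype SF3B1 in the same background. Each of the 10 symbols was matched to 1 of the 32087 loci of the table, the one with the highest mean where a symbol had several. The picking used the 4 degron libraries, so the levels there are given as a description. Tests were run in the knockout and parental libraries, which the picking by its rule did not use. The genes were still chosen with the knockout and parental values already known, so these tests describe them and give no independent support.

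MEL202 carries mutant and wildtype SF3B1, and 4 lines were profiled with and without Shld, a small ligand that keeps a destabilising domain (a degron) from being degraded. The groups were a line with mutant SF3B1 knocked out, a line with the degron on mutant SF3B1, a line with the degron on wildtype SF3B1, and parental cells, each without and with Shld, 1 library in each of the 8 groups. The sample labels give 2 days for the knockout and degron lines and no time for parental cells. The table's own headers describe the knockout line as also carrying the degron on wildtype SF3B1, and give 4 days without Shld for the knockout and the parental libraries. If those headers hold, the knockout cells without Shld had lost wildtype SF3B1 as well, and were kept without Shld longer than the degron lines. Both parental labels read repeat #1, and no other repeat is among the 8 libraries. No label states separate cultures or more than 1 clone for a line, so a line's difference and a clone's difference cannot be told apart. The p-values speak only for the spread within the knockout and parental pairs, or within the parental pair alone. The 2 libraries of such a pair differ in Shld state and are not replicates.

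SF3B1 is a core protein of the U2 particle of the spliceosome, which finds the branch point of an intron before it is cut out. Hotspot mutants of SF3B1, frequent in uveal melanoma, lead the spliceosome to use cryptic 3' splice sites, and some of the transcripts made that way are removed by nonsense-mediated decay. A degron line tests what changes when one form of the protein is withdrawn for days, while a knockout line shows cells that have grown without the mutant form. The values here are transcript levels per gene, in FPKM (fragments per length of transcript and per library) that the authors rescaled. They show neither which splice sites were used nor which allele a transcript came from.

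SF3B1 itself stood at 138 and 158 rescaled FPKM in the knockout line without and with Shld, against 240 and 266 in parental cells (log2 difference -0.77 ± 0.12, limma adjusted p = 0.0212), and at 188 to 252 in the 4 degron libraries. The 10 melanocytic markers, among them PMEL and TYR, were all detected. Their summed level was 6888 to 7669 in the knockout line and 12755 to 13676 in parental cells. It was 8094 to 9753 in the mutant degron line and 14812 to 16098 in the wildtype degron line. PMEL, TYRP1 and MLANA held most of that sum. GPR143 alone was not lower in both knockout libraries (108 without and 112 with Shld) than in both parental ones (111 and 89.3). The sum moved with the line, and its part in the results below was not tested. In bulk RNA a change in the share of cells and a change in RNA per cell cannot be told apart. Of the fibroblast, haematopoietic and epithelial markers, COL1A1, PDGFRB and CD14 had no locus under those symbols and so no value. The others were at or near 0 (at most 1.22 in any library) except LUM, a proteoglycan gene of the fibroblast list. LUM stood at 1.61 and 1.66 rescaled FPKM in knockout cells without and with Shld, against 20.7 and 29.6 in parental cells. LUM thus moved with the line too, and its part in the results was not tested either. Absolute depth is unknown. From its low values, a library held 1.00 to 1.47 times the fragments per unit of the parental library with Shld, the knockout libraries 1.05 without and 1.44 with Shld.

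The first 3 genes encode metabolic enzymes. HACL1 is a peroxisomal lyase that shortens 2-hydroxy and branched fatty acids by 1 carbon, MUT (now MMUT) is the mitochondrial, cobalamin-dependent mutase that turns methylmalonyl-CoA into succinyl-CoA, and HYI is a putative hydroxypyruvate isomerase. RECQL is a RecQ-family DNA helicase, SMARCA1 an ATPase of the ISWI chromatin remodellers, and RTF1 a PAF1-complex partner that aids RNA polymerase II elongation and histone H2B ubiquitination. KIAA0196 (now WASHC5) encodes strumpellin, a subunit of the WASH complex that builds actin on endosomes. WDR34 (now DYNC2I2) is an intermediate chain of dynein-2, the retrograde motor of cilia. RDX encodes radixin, which ties actin to the plasma membrane, and LMAN1 a lectin that carries glycoproteins, coagulation factors among them, from the endoplasmic reticulum to the Golgi.

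Promoters from RefSeq (GRCh38.p14, another build than the authors' hg19, so matched by symbol and not by position) were found for 8 of the 10 genes; HYI and KIAA0196 had none in the table used. The 3 shown belong to the genes with the largest difference between the knockout line and parental cells. Each has 300 bases around the transcription start, 5′ to 3′ on the gene's strand. LMAN1 lies at chr18:59359216-59359515, RECQL at chr12:21501586-21501885 and SMARCA1 at chrX:129523441-129523740, all on the minus strand. Capitals mark CCAAT (the CCAAT box), GGGCGG (the GC box) or CGGAAG (the core of many ETS sites) on either strand.
LMAN1: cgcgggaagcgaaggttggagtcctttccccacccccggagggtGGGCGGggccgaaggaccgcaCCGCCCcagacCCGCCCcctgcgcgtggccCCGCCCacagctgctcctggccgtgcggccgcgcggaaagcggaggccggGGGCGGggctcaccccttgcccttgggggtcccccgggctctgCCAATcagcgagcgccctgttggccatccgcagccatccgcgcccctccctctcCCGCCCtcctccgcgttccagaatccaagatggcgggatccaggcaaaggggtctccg
RECQL: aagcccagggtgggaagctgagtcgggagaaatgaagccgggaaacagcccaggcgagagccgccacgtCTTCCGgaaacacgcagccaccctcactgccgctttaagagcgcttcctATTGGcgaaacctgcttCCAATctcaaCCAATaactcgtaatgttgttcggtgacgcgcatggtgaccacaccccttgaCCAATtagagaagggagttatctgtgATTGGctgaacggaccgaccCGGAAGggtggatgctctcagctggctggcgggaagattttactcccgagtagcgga
SMARCA1: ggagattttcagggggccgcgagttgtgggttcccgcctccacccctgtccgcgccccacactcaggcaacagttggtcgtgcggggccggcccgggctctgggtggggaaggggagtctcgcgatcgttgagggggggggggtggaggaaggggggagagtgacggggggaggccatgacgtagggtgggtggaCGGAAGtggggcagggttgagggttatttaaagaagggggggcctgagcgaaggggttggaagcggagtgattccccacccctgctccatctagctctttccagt
The 3 sequences do not hold one motif in common. LMAN1 has 6 GC boxes and 1 CCAAT, RECQL has 5 CCAAT and 2 CGGAAG, and SMARCA1 has 1 CGGAAG. Over the 8 promoters, CCAAT was in 5, GGGCGG in 5 and CGGAAG in 4, against 34.6%, 45% and 19.5% of 35116 promoters of the same length. TATAAA (the TATA box), CACGTG (an E-box) and TGACGTCA (the cyclic AMP response element) were in 0 of the 8, against 11.5%, 7.26% and 1.85% of all. Both strands were searched and overlapping matches were each counted. The 35116 promoters were taken whatever the level of their gene, unlike the 8, whose genes all had a mean level of at least 5. A match is a string of letters, not a binding site.

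The genes were also compared for length and exon number, since the perturbed protein acts on introns. In GENCODE 29 the longest basic transcript had 9 exons in HYI and WDR34 and 29 in KIAA0196, with a median of 14.5 over the 10 genes. Among 8600 named genes with a mean level of at least 5, 7775 were matched to the annotation (90.4%), and their median was 9 exons. Of those, 27.6% had at least as many exons as the median of the 10 genes. Median transcript length was 3924 bases over the 10 genes and 3375 over the matched genes. These are descriptions of a picked set.

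The values that chose the genes come from the 2 degron lines. Without against with Shld, all 10 genes were higher in the mutant degron line, by 0.45 (RTF1) to 0.68 (RECQL) on the log2(value + 1) scale used throughout, which understates changes of low genes. In the wildtype degron line all 10 were lower without Shld, by 0.52 (MUT) to 0.81 (HACL1). The medians were +0.52 and -0.63, against -0.01 and +0.01 over the 8600 named genes. Being at least 0.4 higher in the mutant pair and at least 0.4 lower in the wildtype pair was true of all 10 and of 34 of the 8600 genes (0.395%), and since these pairs were used for picking, nothing is read from that count. For comparison, 27.3% of the 8600 genes stood above 0 in the first pair and below 0 in the second.

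HACL1 stood at 11.4 and 14.5 rescaled FPKM in knockout cells without and with Shld, at 10.9 and 7.39 in mutant degron cells, at 3.14 and 6.24 in wildtype degron cells, and at 5.83 and 6.68 in parental cells. Its lowest level, in wildtype degron cells without Shld, was thus below both parental libraries. MUT stood at 17.3 and 20.7 in knockout cells without and with Shld, at 18.3 and 11.2 in mutant degron cells, at 7.61 and 11.4 in wildtype degron cells, and at 9.23 and 8.88 in parental cells. Mutant degron cells without Shld thus lay between the knockout libraries for MUT. HYI stood at 20.0 and 32.3 in knockout cells, at 27.1 and 18.8 in mutant degron cells, at 9.52 and 17.4 in wildtype degron cells, and at 13.6 and 17.3 in parental cells, in the same order of Shld states. HYI was the only one of the 10 genes that was lower without Shld by over 0.3 in 3 lines, including parental cells, which carry no degron.

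RECQL stood at 31.9 and 31.0 rescaled FPKM in knockout cells without and with Shld, at 22.1 and 13.5 in mutant degron cells, at 7.67 and 11.7 in wildtype degron cells, and at 8.03 and 8.77 in parental cells. The helicase transcript was thus over 3 times as abundant in either knockout library as in either parental one. SMARCA1 stood at 28.0 and 26.8 in knockout cells, at 11.4 and 7.99 in mutant degron cells, at 11.5 and 18.4 in wildtype degron cells, and at 8.68 and 8.89 in parental cells. Unlike the other 9 genes, this remodeller was as high in the wildtype degron line without Shld as in the mutant degron line without Shld. RTF1 stood at 34.8 and 35.9 in knockout cells, at 25.4 and 18.4 in mutant degron cells, at 12.4 and 20.1 in wildtype degron cells, and at 14.7 and 13.4 in parental cells. For RTF1 the knockout libraries were highest, and wildtype degron cells without Shld lowest.

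KIAA0196 stood at 100.4 and 112 rescaled FPKM in knockout cells without and with Shld, at 75.3 and 52.9 in mutant degron cells, at 39.5 and 66.2 in wildtype degron cells, and at 40.5 and 38.9 in parental cells. A second locus with the same symbol was near 1 or below in every library (0.139 to 1.19) and was not used. WDR34 stood at 55.5 and 79.1 in knockout cells, at 70.1 and 44.4 in mutant degron cells, at 45.0 and 70.4 in wildtype degron cells, and at 46.3 and 45.2 in parental cells. The dynein-2 subunit thus had nearly the same level in 4 libraries and a higher one in the other 4. RDX stood at 26.8 and 26.4 in knockout cells, at 23.0 and 15.7 in mutant degron cells, at 10.2 and 15.4 in wildtype degron cells, and at 12.3 and 11.6 in parental cells. LMAN1 stood at 58.5 and 60.4 in knockout cells, at 42.4 and 28.2 in mutant degron cells, at 21.7 and 31.8 in wildtype degron cells, and at 15.1 and 11.8 in parental cells. For LMAN1 all 6 derived libraries lay above both parental ones.

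**Figure D1:**
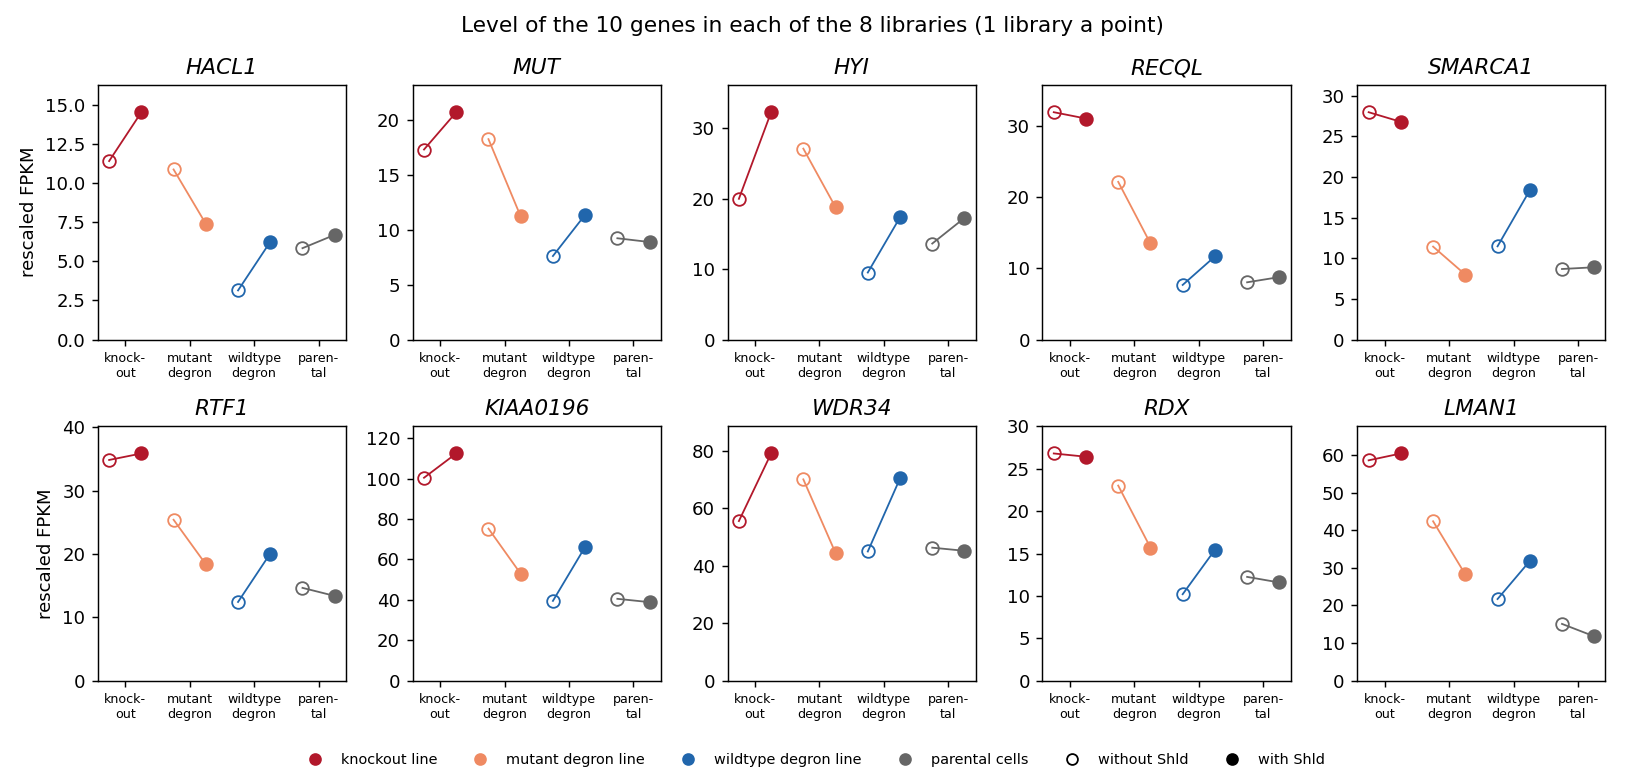
Level of each of the 10 genes in rescaled FPKM (vertical axis, from 0) in the knockout, mutant degron, wildtype degron and parental lines (horizontal axis); each point is 1 library, open without Shld and filled with Shld, and a line joins the 2 libraries of a line. Open points lie above filled ones in the mutant degron line and below them in the wildtype degron line for all 10 genes, which is how they were picked, and both knockout points lie above both parental points for all 10.

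The knockout line against parental cells asks whether genes that are higher when mutant SF3B1 is withdrawn are also high in cells grown without it, in libraries that the degron comparisons do not share. All 10 genes were higher in both knockout libraries than in both parental libraries, as were 30.5% of the 12921 loci whose mean reached 1. With limma across those loci, 8 of the 10 passed an adjusted p of 0.05 as higher and 0 as lower, where 8.61% of all loci passed as higher and 10.3% as lower. The median difference over the 10 genes was +1.19 on the log2 scale, against -0.04 over all loci. The 10 genes were chosen with these values already known, so the count describes them and is no independent sample of such genes.

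LMAN1 rose the most, by 2.07 ± 0.14 on the log2 scale (SE; 2 libraries a line; limma adjusted p = 0.00502), which is 4.42-fold between the line means. RECQL rose by 1.79 ± 0.10 (adjusted p = 0.00372), 3.75-fold, and SMARCA1 by 1.54 ± 0.09 (adjusted p = 0.0041), 3.12-fold. KIAA0196 rose by 1.40 and RTF1 by 1.28. Differences of 1.10 for RDX, 0.99 for MUT and 0.94 for HACL1 also passed, with adjusted p between 0.00571 and 0.0262 for these 5 genes, limma. Ranked by size among 12921 loci, LMAN1 was 99th, RECQL 129th and SMARCA1 200th from the top. HYI (+0.69 ± 0.26, adjusted p = 0.137) and WDR34 (+0.53 ± 0.19, adjusted p = 0.121) did not pass, and those were the genes whose 2 knockout libraries lay furthest apart.

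These calls did not hold when either parental library was left out. The spread then came from the knockout pair alone, and from the parental pair alone when a knockout library was left out. Without the parental library with Shld 0 of the 10 genes passed (limma adjusted p from 0.0719 to 0.374, with 0 loci called in all), and without the parental library lacking Shld also 0 (0.0616 to 0.395, with 16 loci called), while all 10 differences stayed above 0, between 0.51 and 2.24. Leaving out the knockout library without Shld, the one whose wildtype SF3B1 may also have been withdrawn, 7 genes passed, HACL1 no longer, and leaving out the other knockout library 6, HACL1 and MUT no longer. With no filter on low values, 3 of the 10 passed, RECQL, SMARCA1 and RDX.

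**Figure D2:**
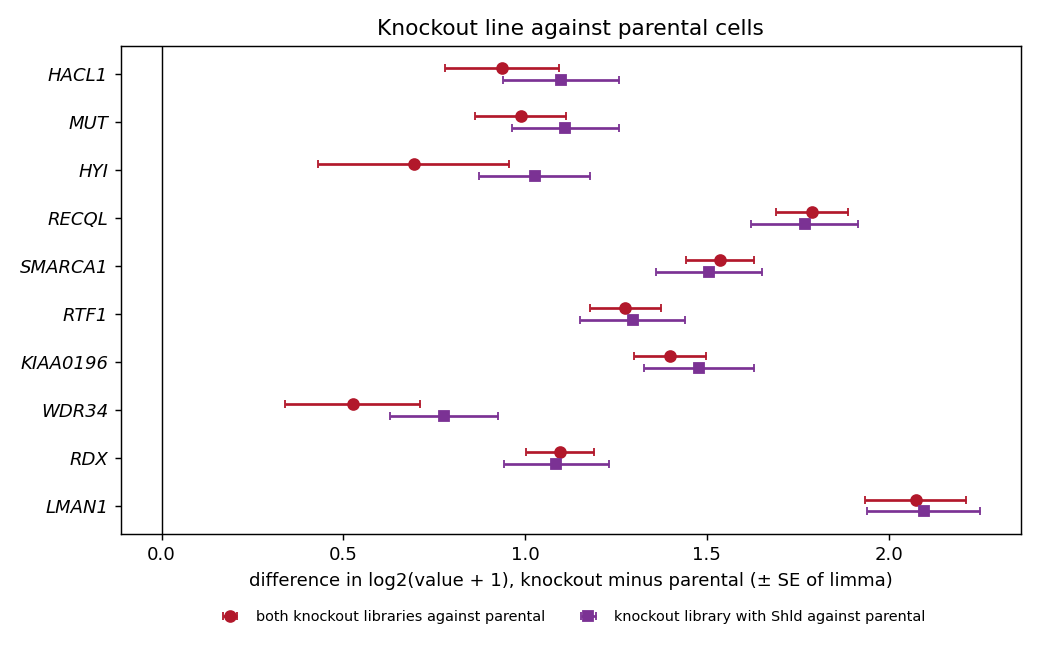
Difference in log2(value + 1) between the knockout line and parental cells (horizontal axis) for the 10 genes, with bars for the standard error of limma; red circles take both knockout libraries and purple squares the knockout library with Shld alone, against the mean of both parental libraries. All values lie above 0, LMAN1 highest at 2.07 and 2.10, and red circles lie furthest below purple squares for HYI and WDR34.

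Knockout cells kept with Shld are those in which wildtype SF3B1 was not withdrawn under either reading of the labels. In a fit across 8600 named genes, in which the parental pair gave the spread and the lone knockout library was assumed to vary like it, all 10 genes passed as higher than parental cells, where 13.8% of named genes passed as higher and 15.2% as lower. HYI rose by 1.03 ± 0.15 and WDR34 by 0.78 ± 0.15, the genes that had missed the threshold with both knockout libraries. LMAN1 rose by 2.10 ± 0.15. The other 7 rose by 1.09 (RDX) to 1.77 (RECQL). The spread given to each gene rested mostly on that of all genes together (prior degrees of freedom 23.4, residual 1). In a fit over all loci with a mean of at least 1 that prior was 2.17. There HACL1, HYI and WDR34 no longer passed, and the rest of the 10 passed only narrowly. Matched by Shld state, the differences ran from 0.79 (WDR34) to 2.26 (LMAN1) with Shld and from 0.26 (WDR34) to 1.89 (LMAN1) without it.

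Withdrawal of Shld in the knockout line asks, if the table headers are right, whether the genes also stand lower when wildtype SF3B1 is withdrawn in cells that lack the mutant. Each state is 1 library, so the spread was borrowed from the parental pair and nothing here measures how much knockout libraries of one state vary. Under that assumption 1 of the 10 genes passed as lower, HYI, at -0.67 ± 0.18 on the log2 scale (20.0 without Shld against 32.3 with it, limma adjusted p = 0.0401), where 1.78% of the 8600 named genes passed as lower and 0.977% as higher. The same difference in parental cells was -0.32, which has no test. With quantile normalization or median scaling HYI did not pass (adjusted p = 0.0986 and 0.0693), nor over all loci with a mean of at least 1 (0.551) or with the wildtype degron pair added to the spread (0.374). WDR34 had -0.50 ± 0.17 (adjusted p = 0.134), HACL1 -0.32 and MUT -0.25. The other 6 genes had differences between -0.16 and +0.06, and the median over the 10 was -0.10, against 0.003 over all 8600.

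The Shld pairs of the wildtype degron line and of the knockout line, where only the table headers give a degron, can be set side by side, without a test because one of them was used for picking. The differences in wildtype degron cells were -0.55 for RECQL, -0.63 for SMARCA1, -0.65 for RTF1, -0.55 for RDX and -0.53 for LMAN1. In the knockout line the same 5 genes had +0.04, +0.06, -0.04, +0.02 and -0.04. HYI had -0.80 in wildtype degron cells and -0.67 in knockout cells, and WDR34 -0.63 and -0.50. By these values HYI and WDR34 were lower in both pairs, the 5 genes above were almost level in the knockout pair, and HACL1, MUT and KIAA0196 lay between them. In the parental pair, which gives the size of differences without a degron, 6 genes stood above 0 and 4 below, from -0.32 (HYI) to +0.33 (LMAN1), and the median was +0.04.

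**Figure D3:**
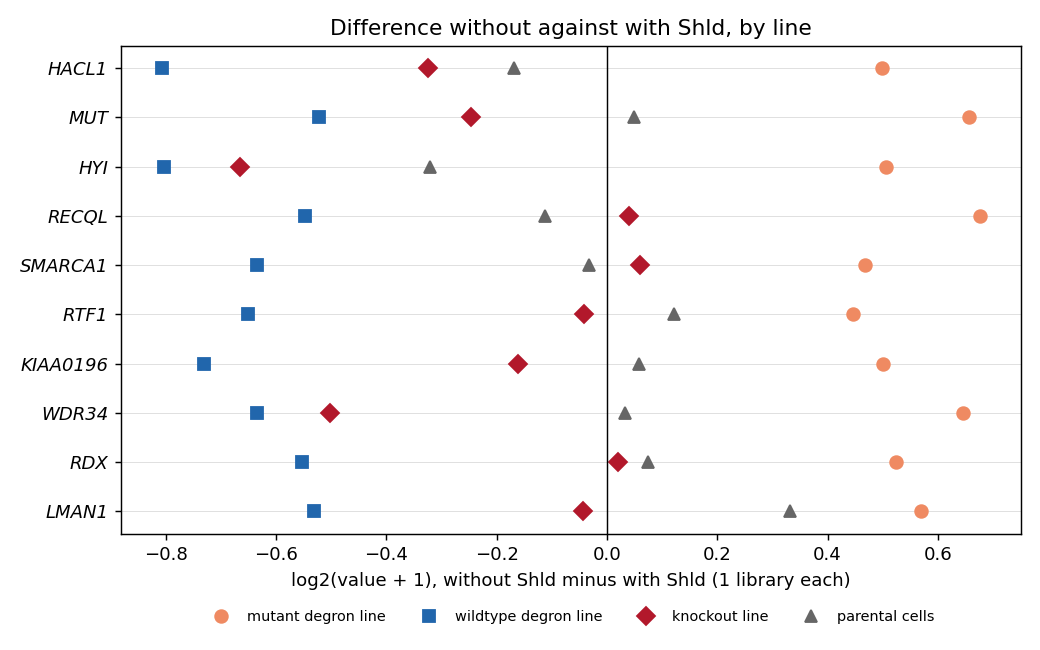
Difference in log2(value + 1) without minus with Shld (horizontal axis) for each of the 10 genes in the 4 lines, 1 library a state. Mutant degron points lie between 0.45 and 0.68 and wildtype degron points between -0.81 and -0.52, while knockout points run from -0.67 for HYI to 0.06 for SMARCA1 and parental points from -0.32 to 0.33.

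Both degron lines kept with Shld were set against the parental libraries, also as a description. In the mutant degron line with Shld 8 of the 10 genes stood above both parental libraries, as did 37.6% of named genes, with SMARCA1 and WDR34 as the exceptions. In the wildtype degron line with Shld 9 of 10 did (45.2% of named genes), all but HACL1, though HYI by only 0.007 on the log2 scale. LMAN1 was 1.19 and 1.36 above the parental library with Shld in those lines, so the lines did not start level with parental cells. Wildtype degron cells without Shld lay below both parental libraries for 7 of the 10 genes, where 45.2% of named genes did so. Among the 7, WDR34 was nearly level, at 45.0 rescaled FPKM against 46.3 without and 45.2 with Shld in parental cells. SMARCA1 and LMAN1 stood 0.35 and 0.66 above the parental mean in wildtype degron cells without Shld, and KIAA0196 lay between the parental libraries. Averaged over the 10 genes, each centred on its own mean, levels were highest in the knockout line (+0.63 without and +0.81 with Shld), followed by mutant degron cells without Shld (+0.38), and were lowest in wildtype degron cells without Shld (-0.63), with parental cells at -0.51 in both states.

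The genes did not follow that average equally. Pearson's r with the average over the 8 libraries was 0.99 for RTF1 and KIAA0196, 0.98 for RDX, RECQL and MUT, 0.94 for LMAN1, 0.91 for HACL1 and 0.85 for HYI. It was 0.81 for SMARCA1 and 0.80 for WDR34. These values describe 8 libraries of 1 cell line, each gene being part of the average it is set against.

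Among the other named genes, the 8 most like that average by Pearson's r over the 8 libraries were SHPK (0.998), LIG3 (0.988), QPCTL (0.985), TTI1 (0.984), UPF3B (0.983), DLG1 (0.976), PPP6R3 (0.975) and ABCA9 (0.974). SHPK encodes sedoheptulokinase, a kinase of a pentose phosphate intermediate. It stood at 15.7 and 16.9 rescaled FPKM in knockout cells without and with Shld, at 12.6 and 8.58 in mutant degron cells, at 6.25 and 9.97 in wildtype degron cells, and at 6.40 and 6.43 in parental cells. LIG3, a DNA ligase of base excision and mitochondrial repair, stood at 21.6 and 23.8 in knockout cells, at 15.6 and 10.9 in mutant degron cells, at 9.04 and 13.7 in wildtype degron cells, and at 9.38 and 8.98 in parental cells. Both showed the same order of libraries as RTF1 at its ends, highest in the knockout line and lowest or nearly so in wildtype degron cells without Shld. UPF3B, a factor of nonsense-mediated decay, stood at 10.6 and 12.8 in knockout cells, at 9.84 and 7.41 in mutant degron cells, at 4.75 and 6.93 in wildtype degron cells, and at 5.85 and 5.48 in parental cells.

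**Figure D4:**
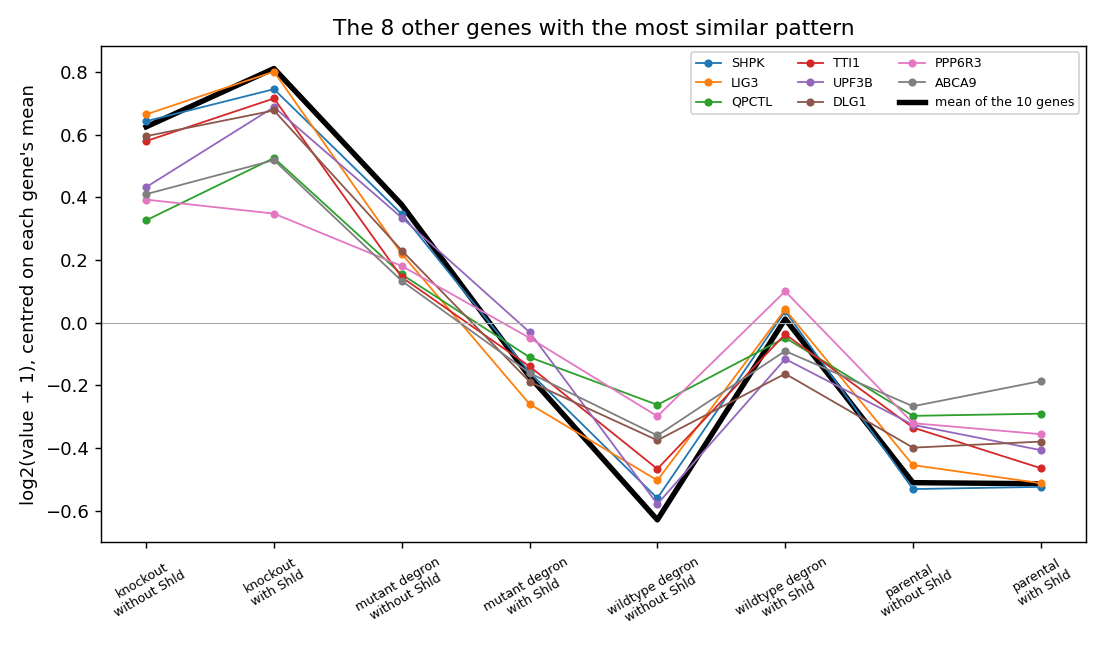
Centred log2(value + 1) (vertical axis) of the 8 other genes with the most similar pattern, coloured, and the mean of the 10 genes, black, over the 8 libraries (horizontal axis). SHPK follows the black line most closely (r = 0.998), and in all of them the knockout libraries are highest and the wildtype degron library without Shld or a parental library is lowest.

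The opposite change was not limited to the 10 genes. Besides them, 24 named genes stood at least 0.4 higher in the mutant pair and at least 0.4 lower in the wildtype pair, SHPK and LIG3 among them. In the knockout line against parental cells 15 of these 24 stood above 0, 10 passed as higher and 1 as lower (LOC100130370, -1.29, named because the count is 1). Of the 12921 loci tested, 45.8% stood above 0, 8.61% passed as higher and 10.3% as lower. The 24 genes had a median of +0.58 and a range from -1.29 to +2.16. The 10 picked genes thus lay, with 10 of 10 above 0 and a median of +1.19, at the upper side of all 34, and the way they were picked from the 34 is not stated.

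Known partners of each gene were followed in 10 lists of 138 genes, of which 112 were tested. In the knockout line against parental cells 11 were higher and 7 lower, with a median of -0.02, where 8.61% and 10.3% of all loci passed. Of 11 ISWI remodeller genes 3 rose and 0 fell, BPTF, the large subunit of NURF in which SMARCA1 is the ATPase, by 1.08 ± 0.12 (limma adjusted p = 0.012), CECR2 by 1.03 and BAZ1A by 0.71, and the list median was +0.33. SMARCA5, the paralogous ATPase, was at +0.49 and did not pass (adjusted p = 0.064). Of 11 WASH and retromer genes, KIAA1033, which encodes another WASH subunit, rose by 0.54 and CCDC53, yet another, fell by 0.78, with a median of -0.03.

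Of 11 dynein-2 and intraflagellar transport genes, the heavy chain DYNC2H1 rose by 1.08 and WDR35 by 0.92, while DYNC2LI1 fell by 0.53 and DYNLT1 by 0.84, with a median of -0.02. Of 10 genes of the PAF1 complex and H2B ubiquitination, RNF20, a ligase for histone H2B, rose by 0.95 and 0 fell, with a median of -0.01. Of 10 ERM genes, CD44, a surface receptor bound by ERM proteins, rose by 1.09 and 0 fell, and the paralogs EZR and MSN were at -0.40 and -0.08, neither past the threshold (adjusted p = 0.073 and 0.612). Of 22 genes of transport between endoplasmic reticulum and Golgi, ERGIC1 rose by 0.65 and LMAN2L, a paralog of LMAN1, by 0.50, and the COPII subunit SEC24C fell by 3.61 ± 0.20 (4.62 without and 2.90 with Shld in knockout cells, against 58.4 without and 54.4 with it in parental cells; limma adjusted p = 0.00372), with a median of +0.08.

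Of 12 propionate and cobalamin genes MTR, the methionine synthase, rose by 0.77, TCN2, the cobalamin carrier of blood, fell by 1.30 and LMBRD1, a lysosomal cobalamin exporter, fell by 0.40, with a median of -0.32. The median over 13 genes of peroxisomal fatty acid oxidation was -0.04. None of 9 tested RecQ helicase and partner genes passed and none of 3 tested genes of glyoxylate metabolism, with medians of -0.09 and -0.42. Between the 2 single knockout libraries, again with the spread borrowed from the parental pair, 0 of 108 list genes passed as higher and 1 as lower. This was RMI2, a partner of the BLM helicase, at 12.4 rescaled FPKM without Shld against 27.0 with it (log2 difference -1.065, 1 library a state). RMI2 was not followed under other settings of scaling, features or spread.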

How the data were processed

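The deposited table holds FPKM-type values of 32087 loci in 8 libraries, which the authors had rescaled to a 75th percentile of 10 per library; that FPKM was rescaled is inferred from the values and from Cufflinks being named. The submitters' processing notes name TopHat, Cufflinks and the build hg19; their versions, the annotation and strand use were not given in the sources used here. Columns were matched to samples by name.

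Values were tested as log2(value + 1) with limma 3.58.1 (R 4.3.3), empirical Bayes with a trend, and Benjamini-Hochberg adjustment over all features tested, at 0.05. Knockout against parental used 12921 loci whose mean reached 1 and the spread within the knockout and parental pairs (2 residual degrees of freedom). The other fits used 8600 named genes whose mean reached 5, 1 locus a symbol, and the spread of the parental pair (residual degrees of freedom 1, prior 23.4). All 10 genes passed both filters. The genes, the lists of partners and the tests were chosen with earlier results of these data known. Text names the 10 genes, list genes that passed (at most 3 a list, the largest) and the 8 most similar genes. In the dynein-2 list all genes that passed are named. Others are named where a count is small or as paralogs. The result of 1 list gene is not reported here.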

Additional observations from a re-analysis of the deposited data

Results flagged for a closer look

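For 7 of the 10 genes the difference without against with Shld had one sign in the knockout line and the other sign in parental cells; 3762 of the 8600 named genes (43.7%) also had opposite signs in those pairs, and with 1 library a state this difference between lines was not tested. MUT had -0.246 in knockout cells and +0.0496 in parental cells. RECQL had +0.0396 in knockout cells and -0.113 in parental cells. SMARCA1 had +0.0602 in knockout cells and -0.0318 in parental cells. For RTF1 the values were -0.0407 in knockout cells and +0.122 in parental cells. For KIAA0196 they were -0.161 in knockout cells and +0.0584 in parental cells. For WDR34 they were -0.502 in knockout cells and +0.0335 in parental cells, the widest gap of the 7. For LMAN1 they were -0.0435 in knockout cells and +0.331 in parental cells.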

How the results depend on the processing

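In the knockout line against parental cells all 10 differences stayed above 0 under the 13 alternatives. The number of the 10 genes that passed was 8 or 9 under other pseudocounts, scalings, filters at a mean of at least 5, Shld as a covariate or the parental spread alone, 3 without a filter on low values, and 0 to 7 with 1 library left out. Over all loci 2447 passed, 273 without a filter, and 0 to 749 with 1 library left out. For knockout cells with Shld 10 passed, and 7 over all loci with a mean of at least 1, where 646 loci passed against 2493 named genes. Between the 2 single knockout libraries, without against with Shld, 1 gene (HYI) passed, and 0 with quantile normalization, median scaling, all loci or the wildtype degron pair in the spread; the features called were 237, and 62, 156, 24 and 18 under those 4 settings. The cause of these shifts was not tested. The settings differed in scaling, in the libraries and features used, and in the pairs that gave the spread. No direction reversed. With knockout and parental libraries paired by Shld state (Shld as a covariate), 2024 loci and 8 of the 10 genes passed. Depth is unknown, so low values carry no counting interval.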
